A study of Mus musculus with 6 samples.

Results

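The tubulin genes described here are the 3 alpha tubulins Tuba1a, Tuba1b and Tuba1c, the 6 beta tubulins Tubb2a, Tubb2b, Tubb3, Tubb4b, Tubb5 and Tubb6, and the gamma tubulin Tubg1. They were taken by gene symbol, and all 10 were found among the 17920 genes of the deposited expression table. After knockdown of Ybx1, a protein that reads 5-methylcytosine in mRNA, none of the 10 passed an adjusted p of 0.05 in the fit without pairing, where 24.0% of all genes tested did. With same-numbered libraries treated as pairs, 4 of the 10 were called lower (Tuba1a, Tuba1c, Tubb2b and Tubb5), where 18.1% of all genes were. Without pairing, the fitted change of each of the 8 members counted above 100 reads in every library lay between -0.18 and 0.02 on the log2 scale. Tuba1c and Tubb6, which had fewer reads, stood at -0.72 and -0.37.

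The cells were mouse cortical cells of the E13.5 embryo, dissociated and kept in culture. The 3 KD libraries came from cultures infected with a lentivirus that carried a short hairpin RNA against Ybx1, and the 3 WT libraries were the controls of the same culture system, named Ctrl in the deposited table. The methods list a control hairpin in the same vector for such cultures, and puromycin was given for 1 day after infection to keep infected cells before RNA was taken. Which of the hairpins against Ybx1 was used, and the strain of the embryos, was not given in the sources used here. The design text speaks of a deletion of Ybx1, whereas the labels and the table name a knockdown, and the number of embryos behind a culture was not given. The libraries were described as biological replicates, and p-values cover the spread between these 6 samples.

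Microtubules are hollow polymers of alpha and beta tubulin dimers, and their growth is started from ring complexes that contain gamma tubulin. Young cortical neurons hold large amounts of tubulin for axon growth and migration, and progenitors use the same proteins for the mitotic spindle. Mammals carry several genes for each kind of tubulin, called isotypes, whose proteins differ mostly in their last residues. Tubulin mRNA is also under feedback: when free dimers are abundant, the adaptor Ttc5 binds the first residues of the growing alpha or beta chain and recruits Scaper and the CCR4-NOT deadenylase, and the mRNA is degraded on the ribosome.

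The start of the coding sequence is shown because in alpha and beta tubulins it encodes the stretch that Ttc5 reads. The first 4 codons are in capitals, 5′ to 3′, from GENCODE transcripts on the GRCm38 build. Tubg1 is printed for comparison only, since its start is unlike those of the alpha and beta genes. The sequence of Tubb6 is not shown.
Tuba1a: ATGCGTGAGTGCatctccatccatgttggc
Tuba1b: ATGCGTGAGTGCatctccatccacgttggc
Tuba1c: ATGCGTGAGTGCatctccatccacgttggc
Tubb2a: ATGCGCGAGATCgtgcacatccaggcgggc
Tubb2b: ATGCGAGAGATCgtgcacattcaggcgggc
Tubb3: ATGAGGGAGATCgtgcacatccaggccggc
Tubb4b: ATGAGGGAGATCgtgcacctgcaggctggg
Tubb5: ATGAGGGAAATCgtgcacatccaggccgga
Tubg1: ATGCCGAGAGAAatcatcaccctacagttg
The first 12 bases were identical in Tuba1a, Tuba1b and Tuba1c and were found at the start of 4 of 21590 coding genes, the other being the predicted gene Gm49450. Tubb3 and Tubb4b shared theirs, and those of Tubb2a, Tubb2b, Tubb5 and Tubg1 were each found in 1 gene. These counts are of bases and not of residues. The first 4 codons of the beta tubulins shown differ in bases but encode the same residues.

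The near-identical isotypes matter for the values that follow, since a read that lies in a shared stretch has to be divided between genes. The last 30 coding bases before the stop codon are shown for the closest beta and gamma pairs, with the bases that differ from the partner in capitals. Tubg2, the second gamma tubulin gene, is included as the partner of Tubg1.
Tubb2a: ttcgaggaggaGgagggTgaAgatgaggct
Tubb2b: ttcgaggaggaAgagggCgaGgatgaggct
Tubg1: gactaTatctcctggggCacccaggagcag
Tubg2: gactaCatctcctggggTacccaggagcag
Over the whole coding sequence Tuba1a and Tuba1b were 98.3% identical, Tuba1a and Tuba1c 97.1%, and Tuba1b and Tuba1c 97.9%. Tubb2a and Tubb2b were 96.5% identical and shared an unbroken run of 551 bases, and Tubg1 and Tubg2 were 93.3% identical.

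The genes lie both in clusters and alone, in GRCm38 coordinates of RefSeq. The 3 alpha genes sit together on chromosome 15, Tuba1b at chr15:98931429-98934390 and Tuba1a at chr15:98949847-98953501 on the minus strand, and Tuba1c at chr15:99029891-99038105 on the plus strand. Tubb2a at chr13:34074278-34078008 and Tubb2b at chr13:34127008-34130354 are neighbours on the minus strand. Tubb3 lies at chr8:123411553-123422015, Tubb4b at chr2:25222158-25224702, Tubb5 at chr17:35833920-35838301 and Tubb6 at chr18:67390731-67402749. Tubg1 lies at chr11:101119904-101126423, upstream of Tubg2 at chr11:101155874-101161787 on the same strand. The coding part of each alpha and beta member is in 4 exons, and that of Tubg1 in 11.

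The estimated counts carried a mark of this division of reads. Tuba1a, Tuba1b, Tuba1c, Tubb2a and Tubb2b had fractional counts in all 6 libraries, and Tubg1 in 2, whereas Tubb3, Tubb4b, Tubb5 and Tubb6 had whole counts throughout. Of all stretches of 100 bases in the transcript, 65.1% of those of Tuba1a, 69.5% of Tuba1b and 53.4% of Tuba1c occurred in the transcript of another gene. The share was 36.9% for Tubb2a, 27.7% for Tubb2b and 4.11% for Tubg1, and 0 for Tubb3, Tubb5 and Tubb6. Tubb4b was an exception, since 29.2% of its stretches occurred elsewhere and its counts were whole. Those stretches occurred in Tubb4b-ps1 and Tubb4b-ps2, named as pseudogenes, and in the predicted gene Gm16165. Stretches of Tuba1a, Tuba1b and Tuba1c also occurred in predicted genes, among them Gm14150 and Gm49450, and those of Tubb2a and Tubb2b in Tubb2a-ps2. The division between Tuba1a, Tuba1b and Tuba1c, and between Tubb2a and Tubb2b, is therefore an estimate, and sums over each group are given with the results. These sums leave out the predicted genes and Tubb2a-ps2.

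The 6 libraries held 16294635 to 16497505 estimated reads, and 89.3% to 89.9% of the listed values were whole. Ybx1, the targeted gene, was counted at 10189, 9963 and 10484 reads in the WT libraries (replicates 1 to 3) and at 1635, 1511 and 2620 reads in the KD libraries. Its log2 fold change was -2.43 (SE 0.18, n = 3 against 3), and its adjusted p 1.8e-04 by the quasi-likelihood F-test of edgeR, adjusted over all genes by Benjamini-Hochberg, as is every adjusted p that follows. Neuron markers reached a summed 5611 to 6431 TPM (the length-scaled share of transcripts) in every library, and cortical markers 261 to 434, so the markers of the labelled tissue were present in all 6. Astrocyte and oligodendrocyte markers summed to 321 to 460 TPM. Microglial markers summed to 1.17 to 1.93 TPM and red blood cell markers to at most 1.07.

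Tuba1a, the main alpha tubulin of migrating neurons, was the most counted gene of all 6 libraries and also had the highest mean TPM of all genes. Its level was 14753, 15299 and 17043 TPM in WT replicates 1 to 3 and 13671, 14897 and 16227 TPM in KD replicates 1 to 3. The groups overlapped, and within each number the KD library was the lower. By itself Tuba1a took 0.964% to 1.08% of the WT reads and 0.869% to 1.04% of the KD reads, and the 10 members together took 2.56% to 2.93% of WT TPM and 2.41% to 2.81% of KD TPM.

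Levels can be compared between genes in TPM, which is scaled by transcript length. Over all 6 libraries the order was Tuba1a at a mean of 15315 TPM, Tubb2b at 4035, Tubb5 at 2170, Tubb3 at 1795, Tuba1b at 1519, Tubb2a at 1357, Tubb4b at 281, Tubg1 at 67.1, Tubb6 at 5.73 and Tuba1c at 2.60. Tubb5 and Tubb3 overlapped over the 6 libraries, as did Tuba1b and Tubb2a. The libraries of every other pair of neighbours in this order did not overlap. The range from Tuba1a to Tuba1c thus ran from the gene with the highest estimated mean TPM among those listed to a gene near the limit of testing.

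**Figure D1:**
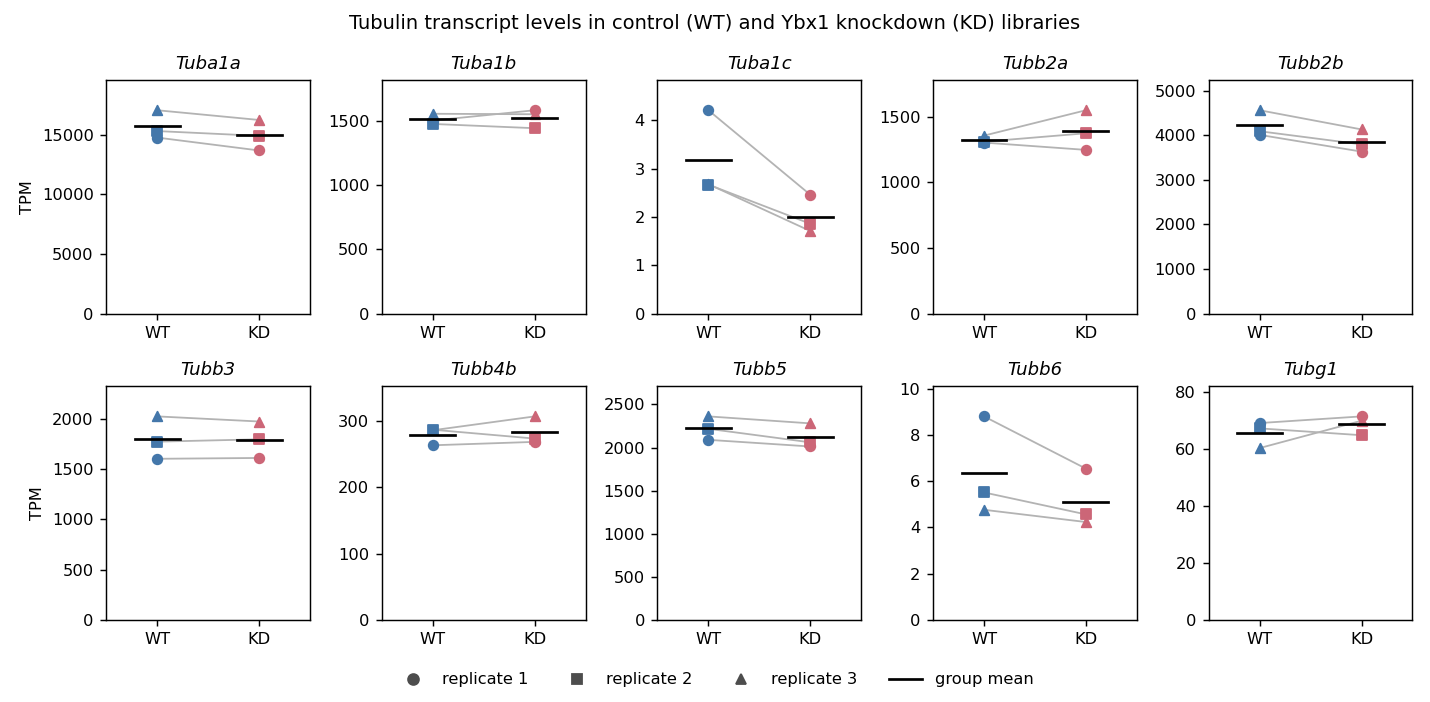
Level of each of the 10 tubulin genes in TPM (vertical axis, starting at 0 and scaled for each gene) in the 3 WT and 3 KD libraries; grey lines join libraries with the same replicate number and black bars are group means. The libraries overlap between groups for all genes except Tuba1c, for which the 3 KD libraries (1.71 to 2.46 TPM) lie below the 3 WT libraries (2.67 to 4.21 TPM). In counts scaled by library size, the groups did not overlap for 41.6% of all genes tested, 20.6% with KD lower.

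The comparison of KD with WT asked which transcripts changed when the m5C reader was depleted. Of 13669 genes tested, 24.0% passed an adjusted p of 0.05, 1646 genes with a higher level in KD and 1631 (11.9%) with a lower one. None of the 10 tubulin genes was among them. At an unadjusted p under 0.05, 2 of 10 members passed, Tuba1c and Tubb2b, both with a negative log2 fold change, beside 37.9% of all genes in either direction and 19.0% with a negative one. DESeq2 and limma-voom also called none of the 10 at an adjusted p of 0.05, and each had 2 at an unadjusted one. Without KD replicate 2, or without both libraries numbered 2, no member had an unadjusted p under 0.05. The median log2 fold change of the 10 was -0.09 and that of all genes tested -0.00, and 8 of the 10 values were below 0.

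Same-numbered WT and KD libraries deviated together from their group means, so a fit that treats the number as a block is given beside the one without it. With the block, 4 members were called lower and none higher, namely Tuba1a, Tuba1c, Tubb2b and Tubb5, where 36.6% of all genes were called and 18.1% were lower. In counts scaled by library size with TMM factors (CPM), 6 members were lower in KD in 3 of 3 pairs (Tuba1a, Tuba1c, Tubb2b, Tubb3, Tubb5 and Tubb6), beside 30.7% of all genes, and no member was higher in all 3 pairs, beside 31.0%. The sizes were small in the most abundant of them.

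Among the alpha tubulins, the fitted log2 fold change of Tuba1a was -0.12 (SE 0.07, 95% interval -0.29 to 0.04, adjusted p = 0.25). Its 3 pairs stood at -0.18, -0.13 and -0.08, and the adjusted p with the block was 0.010. Tuba1b, expressed widely and also in dividing cells, had 1503, 1477 and 1556 TPM in WT and 1583, 1443 and 1552 TPM in KD. The groups overlapped, and the fitted log2 value was -0.04 (SE 0.05, interval -0.15 to 0.07, adjusted p = 0.59; 0.48 with the block).

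Tuba1c had the most negative value and the fewest reads. Its estimated counts were 58.9, 37.1 and 36.0 in WT and 33.2, 24.6 and 23.4 in KD. In CPM it was the only member whose groups did not overlap, as in 41.6% of all genes (20.6% with KD lower). The log2 fold change was -0.72 (SE 0.26, interval -1.30 to -0.15), with an adjusted p of 0.070 without the block and 0.013 with it. The reads of Tuba1c are a small remainder beside the 142145 to 176217 reads of Tuba1a, with which it shares sequence, so its counts rest on how shared reads were divided. With the reads of Tuba1a, Tuba1b and Tuba1c summed, the log2 fold change was -0.12 (SE 0.07, adjusted p = 0.24; 0.013 with the block).

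Of the beta tubulins, Tubb2b was the most abundant. It is an isotype whose mutation can disturb neuronal migration. Its level was 4007, 4089 and 4559 TPM in WT and 3632, 3794 and 4130 TPM in KD, so that KD replicate 3 overlapped the WT range. The log2 fold change was -0.18 (SE 0.06, interval -0.33 to -0.04, adjusted p = 0.071), the pairs stood at -0.21, -0.19 and -0.15, and the adjusted p with the block was 0.0013. It was 0.0495 with upper-quartile scaling and 0.020 without KD replicate 3.

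Tubb2a, the near-identical neighbour of Tubb2b, had 1303, 1310 and 1356 TPM in WT and 1248, 1374 and 1550 TPM in KD. The KD libraries lay on both sides of the WT range, with pairs at -0.13, -0.02 and 0.18 and a fitted log2 fold change of 0.02 (SE 0.08, interval -0.16 to 0.19, adjusted p = 0.88; 0.88 with the block). With the reads of Tubb2a and Tubb2b summed, the value was -0.14 (SE 0.07, adjusted p = 0.15; 0.0082 with the block).

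Tubb5, the widely expressed beta tubulin of cycling cells and neurons, had 2089, 2217 and 2361 TPM in WT and 2012, 2060 and 2280 TPM in KD. The groups overlapped and each KD library was below its WT partner. The log2 fold change was -0.12 (SE 0.07, interval -0.27 to 0.03, adjusted p = 0.21; 0.025 with the block and 0.041 without KD replicate 3).

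Tubb3, the beta tubulin used as a marker of neurons, had 1601, 1771 and 2022 TPM in WT and 1609, 1794 and 1972 TPM in KD. The order of the 3 replicates was the same in both groups, and the pairs hardly differed. Its log2 fold change was -0.06 (SE 0.09, interval -0.27 to 0.16, adjusted p = 0.70; 0.27 with the block). Its direction depended on the scale, since KD was below WT in all 3 pairs in TMM-scaled CPM and above it in the pairs numbered 1 and 2 in TPM.

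Tubb4b, a broadly expressed beta tubulin, had 264, 287 and 287 TPM in WT and 269, 274 and 307 TPM in KD. The groups overlapped, and the fitted log2 value was -0.03 (SE 0.07, interval -0.19 to 0.13, adjusted p = 0.78; 0.66 with the block). Tubb6, counted at 106, 66 and 55 reads in WT and 76, 52 and 50 in KD, had a value of -0.37 with a wide interval (SE 0.26, interval -0.96 to 0.22, adjusted p = 0.33; 0.088 with the block). WT replicate 1 had the most reads of Tubb6, and without it the value was -0.06.

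Tubg1, the gamma tubulin of the ring complex that starts microtubules, had 69.1, 67.2 and 60.3 TPM in WT and 71.5, 64.8 and 69.9 TPM in KD. The groups overlapped, and the log2 fold change was 0.02 (SE 0.08, interval -0.16 to 0.19, adjusted p = 0.90; 0.87 with the block). For Tuba1a, Tuba1b, Tubb2a, Tubb2b, Tubb3, Tubb4b, Tubb5 and Tubg1 the lowest lower bound was -0.33 and the highest upper bound 0.19. The plot of fold changes sets the members beside the other tubulin genes.

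**Figure D2:**
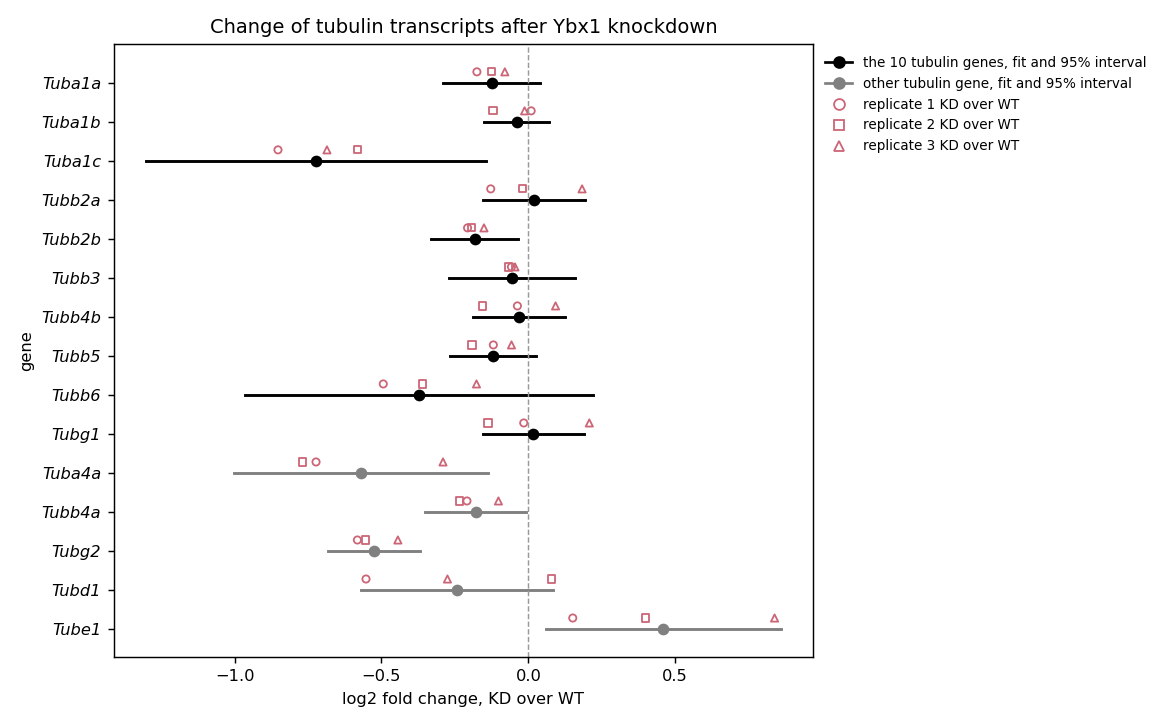
Fitted log2 fold change of KD over WT with its 95% interval (edgeR, horizontal axis) for the 10 tubulin genes in black and the 5 other tubulin genes tested in grey; open symbols are the log2 ratios of same-numbered libraries. Among the 10 tubulin genes the intervals of Tuba1c and Tubb2b lie below 0 before adjustment for multiple testing. Of the other tubulin genes, those of Tuba4a, Tubb4a and Tubg2 lie below 0 and that of Tube1 above it. Of all genes tested, 37.9% had an unadjusted p under 0.05 in this fit, 19.0% with a negative value. Among all genes shown only Tubg2 has an adjusted p under 0.05 in this fit.

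Next, the make-up of the tubulin pools was described from TPM, with no test. The alpha members summed to 16261, 16778 and 18601 TPM in WT and 15256, 16342 and 17781 TPM in KD, and the beta members to 9273, 9680 and 10591 TPM in WT and 8776, 9302 and 10243 TPM in KD. Both sums were lower in KD in 3 of 3 pairs, with overlapping groups. The ratio of alpha to beta TPM was 1.75 ± 0.013 (SD, n = 3) in WT and 1.74 ± 0.011 (SD, n = 3) in KD.

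Within the alpha pool Tuba1a made up 91.2% ± 0.45 (SD, n = 3) in WT and 90.7% ± 0.93 (SD, n = 3) in KD, with overlapping libraries. Within the beta pool Tubb2b made up 43.2%, 42.2% and 43.0% in WT and 41.4%, 40.8% and 40.3% in KD. The groups did not overlap. Tubb2a made up 14.1% in WT replicate 1, 12.8% in WT replicate 3 and a value between them in WT replicate 2, against 14.2%, 14.8% and 15.1% in KD, again with no overlap, the 2 nearest libraries being WT replicate 1 and KD replicate 1. The ratio of Tubb2a to Tubb2b was 0.325, 0.320 and 0.297 in WT and 0.344, 0.362 and 0.375 in KD. The shares of Tubb3 (18.2% ± 0.92 in WT, 19.0% ± 0.54 in KD, SD, n = 3), Tubb4b (2.84% ± 0.13 and 3.00% ± 0.060) and Tubb5 (22.6% ± 0.31 and 22.4% ± 0.42) overlapped between the groups. Since Tubb2a and Tubb2b exchange reads by estimate, the part of that division in their shares was not tested. Single genes did not overlap between the groups in 41.6% of cases in CPM, and how often such shares or ratios do not was not examined.

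**Figure D3:**
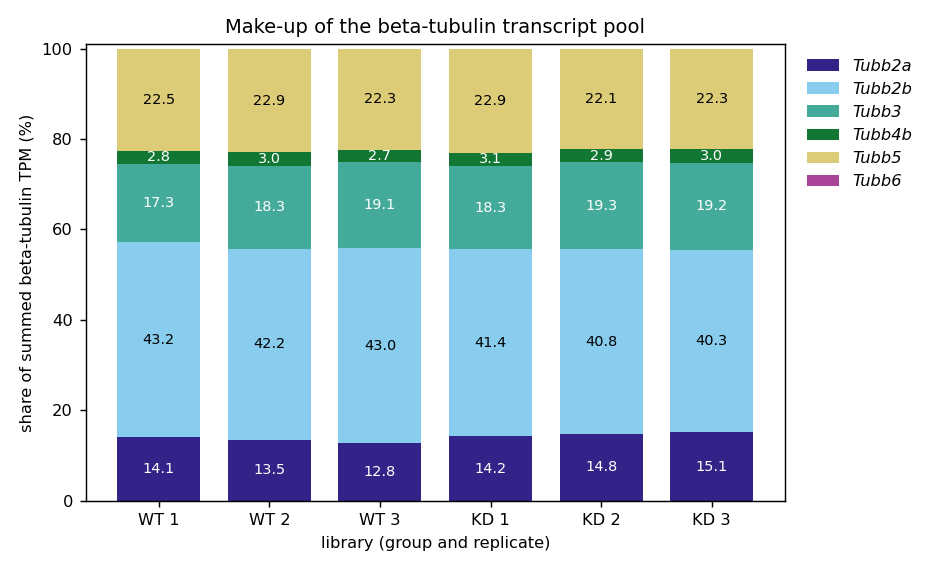
Share of each beta tubulin in the summed beta TPM of each library, in percent; Tubb6, under 0.1%, is too thin to see. The Tubb2b share is 42.2% to 43.2% in WT and 40.3% to 41.4% in KD, and the Tubb2a share 12.8% to 14.1% and 14.2% to 15.1%.

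Other genes that encode tubulins were examined as well. Of 10 such genes, 8 were in the table and 5 were tested, of which 1 fell and none rose, beside 24.0% of all genes called and 11.9% lower. With the block 3 were lower (Tubg2, Tuba4a and Tubb4a) and 1 higher (Tube1), beside 36.6% called. Tuba8, Tubal3 and Tubb1 were counted too rarely to be tested, at no more than 1.07, 0.13 and 0.07 TPM in any library, and Tuba3a and Tuba3b had no row. The gene that fell was Tubg2, the second gamma tubulin, with 41.9, 39.3 and 41.1 TPM in WT and 29.2, 28.2 and 30.3 TPM in KD. The groups were well apart, and the log2 fold change was -0.53 (SE 0.07, interval -0.68 to -0.37, adjusted p = 0.0016; 0.055 without both libraries numbered 2). The ratio of Tubg2 to Tubg1 was 0.606, 0.585 and 0.681 in WT and 0.409, 0.435 and 0.433 in KD. Counts of Tubg2 were fractional in 2 libraries, and 4.23% of its 100-base stretches occurred in Tubg1.

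Tuba4a, an alpha tubulin of mature neurons, had 33.6, 47.0 and 45.6 TPM in WT and 21.2, 29.4 and 37.8 TPM in KD. KD replicate 3 lay within the WT range, and the log2 fold change of -0.57 (SE 0.19) had an adjusted p of 0.059, which was 1.3e-04 with the block, 0.0078 in DESeq2, 0.047 with no filter, 0.031 without WT replicate 1 and 0.017 without KD replicate 3. Its counts were fractional in all libraries although none of its 100-base stretches occurred in another transcript, and it overlaps Stk16 in the genome. Tubb4a, a beta tubulin of neurons and oligodendrocytes, had 515, 574 and 590 TPM in WT and 466, 518 and 553 TPM in KD. Its log2 fold change was -0.18 (SE 0.08, adjusted p = 0.12; 0.0056 with the block and 0.045 without KD replicate 3). Tubd1 and Tube1, the delta and epsilon tubulins of centrioles, had log2 fold changes of -0.24 (SE 0.14, adjusted p = 0.25) and 0.46 (SE 0.18, adjusted p = 0.091; 0.049 with the block).

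The genes that fold tubulin or act on it were then counted, against the 24.0% of all genes that passed, 11.9% with a lower level in KD. With the block, 36.6% of all genes were called, 18.6% higher and 18.1% lower. Of 15 genes for tubulin folding (cofactors, their regulators and prefoldin subunits), 1 rose, 3 fell and 11 did not pass, with a median log2 fold change of -0.02. With the block 2 rose and 4 fell. Pfdn5, a subunit of the prefoldin that hands nascent tubulin to the chaperonin, fell by 0.23 on the log2 scale (SE 0.05, adjusted p = 0.0086). The cofactor Tbcb, which binds alpha tubulin, fell by 0.21 (adjusted p = 0.035) and Tbcd, which binds beta tubulin, fell by 0.17 (adjusted p = 0.046), whereas Tbce, the partner of Tbcb, rose by 0.20 (adjusted p = 0.044). The call of Tbcd was lost with any 1 library left out, that of Tbce with any but KD replicate 1, and that of Tbcb without WT replicate 1 or 2 or KD replicate 1 or 2, with adjusted p up to 0.14, 0.15 and 0.13. With all libraries, Tbcd and Tbce also missed the threshold in DESeq2 (0.088 and 0.13) and with no filter (0.067 and 0.052). Tbcd also missed it with library totals (0.064) and in TPM (0.18), and Tbce with upper-quartile scaling (0.058) and limma-voom (0.051). Without both libraries numbered 2 the adjusted p of Pfdn5 was 0.14.

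Of 19 genes of the gamma-tubulin ring complex, its anchors and the augmin complex, 2 rose, 1 fell and 16 did not pass, with a median of 0.10. With the block 3 rose and 1 fell. Mzt1, a small subunit that lets the ring complex bind its activators, rose by 0.72 (SE 0.05, adjusted p = 2.1e-04), from 65.3 ± 3.20 CPM in WT to 107.9 ± 3.00 CPM in KD (SD, n = 3). Akap9, which anchors the complex at the Golgi, rose by 0.15 (adjusted p = 0.0496) and the augmin subunit Haus8 fell by 0.25 (adjusted p = 0.044). Neither of these calls held when any single library was left out, with adjusted p up to 0.18 and 0.14. With all libraries, both also missed the threshold in DESeq2 (0.066 and 0.12) and with no filter (0.058 and 0.064). Akap9 also missed it with upper-quartile scaling (0.084), and Haus8 with library totals (0.069) and in TPM (0.070).

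Tubulin chains are modified after folding, mostly at their tails. Of 23 modifying enzyme genes 20 were tested, of which 4 rose, 3 fell and 13 did not pass, with a median of 0.01. With the block 5 rose and 5 fell. Svbp, the partner of the vasohibins that remove the last tyrosine of alpha tubulin, rose by 1.03 (SE 0.09, adjusted p = 3.7e-04), from 13.2 ± 1.34 to 27.0 ± 0.665 CPM (SD, n = 3). Ttl, the ligase that puts the tyrosine back, fell by 0.65 (SE 0.08, adjusted p = 0.0011), from 104.1 ± 4.02 to 66.2 ± 7.30 CPM (SD, n = 3). Vash1 and Vash2, the vasohibins themselves, had log2 fold changes of 0.03 and -0.01 (adjusted p = 0.71 and 0.93). Sirt2, a deacetylase of alpha tubulin, rose by 0.56 (SE 0.07, adjusted p = 0.0014), and Ttll1, a polyglutamylase, rose by 0.47 (SE 0.06, adjusted p = 0.0011). Ttl, Sirt2 and Ttll1 had adjusted p of 0.055, 0.052 and 0.051 without both libraries numbered 2.

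The genes of the mRNA feedback were Ttc5, Scaper and 10 subunits of the CCR4-NOT complex. Of these 12 genes 4 rose, 1 fell and 7 did not pass, with a median of 0.10. With the block 5 rose and 1 fell. The risers were the scaffold Cnot1 (0.30, SE 0.05, adjusted p = 0.0039), Cnot3 (0.24, adjusted p = 0.013), the deadenylase subunits Cnot6l (0.23, adjusted p = 0.016) and Cnot7 (0.22, adjusted p = 0.011). The call of Cnot6l was lost when WT replicate 2, KD replicate 1 or KD replicate 2 was left out, with adjusted p from 0.053 to 0.064, and without both libraries numbered 2 the adjusted p of Cnot1, Cnot3 and Cnot7 was 0.10, 0.14 and 0.14. Ttc5, which recognises the start of alpha and beta chains, stood at -0.11 on the log2 scale (SE 0.06, adjusted p = 0.20) and Scaper at 0.19 (SE 0.06, adjusted p = 0.058; 0.025 with the block).

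**Figure D4:**
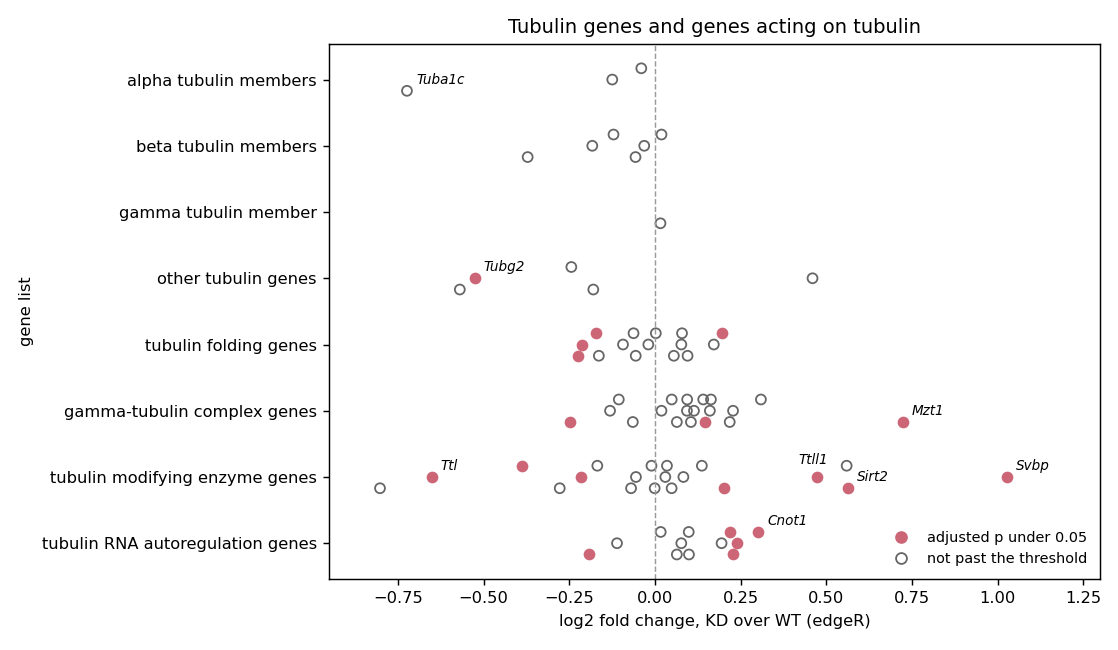
Log2 fold change of KD over WT (horizontal axis, edgeR) for every tested gene of each list, 1 point a gene, filled where the adjusted p is under 0.05; points are offset vertically for legibility. The 10 tubulin genes have no filled point, Tubg2 is the filled point among the other tubulin genes, and Svbp at 1.03, Mzt1 at 0.72 and Ttl at -0.65 lie farthest from 0 among the filled points.

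Levels in a bulk culture also move with the kinds of cells in it, and fewer cells of a type and less RNA per cell cannot be told apart. The counts of markers that follow stand beside 24.0% of all genes called, or 36.6% with the block. The 16 neuron markers summed to 6122 to 6431 TPM in WT and 5611 to 6189 TPM in KD, with 3 rising (Dcx, Neurod2 and Nefm), 4 falling (Stmn2, Gap43, Syt1 and Ina) and 9 not passing, and with the block 6 rose and 5 fell. The 4 intermediate progenitor markers all rose and summed to 43.0 to 55.2 TPM in WT and 97.3 to 122 TPM in KD. Of 10 dividing cell markers 6 rose and none fell, at 317 to 364 TPM in WT and 438 to 555 TPM in KD, and of 10 radial glia markers 2 rose and none fell. With the block 9 dividing cell markers and 5 radial glia markers rose. The 8 astrocyte and oligodendrocyte markers summed to 362 to 460 TPM in WT and 321 to 378 TPM in KD. Of the 7 tested, none rose and 1 fell, Olig1 (log2 fold change -0.54, adjusted p = 0.011), and with the block 3 fell. The part of this shift in the levels of the tubulin genes was not tested.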

How the data were processed

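The deposited table gives estimated counts and TPM for each gene in 3 WT (control) and 3 KD libraries of cultured E13.5 cortical cells, made by the authors from purified mRNA sequenced on DNBSEQ. The submitters' processing notes name HISAT2 2.2.1, Bowtie2 2.4.5, RSEM 1.3.1 and the builds GRCm38 and mm10, with no role for each. Strandedness was not given in the sources used here. The estimated counts in the deposited table need not be whole, because reads that fit several genes are divided between them. The deposited TPM values are scaled by length and library. The table names its control columns Ctrl, and each was matched to the WT label of the same number. The deposited FPKM values, scaled by length by the authors, and the authors' group averages were not used.

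After rounding, the counts were fitted in edgeR 4.0.16 (quasi-likelihood F-test, TMM scaling, filterByExpr with a minimum count of 10) in R 4.3.3 on all 13669 genes kept of 17920, with Benjamini-Hochberg adjustment at 0.05. Standard errors and 95% intervals come from the fit. The step was also run on simulated libraries with no replicate effect, as a check of the code, and no result here rests on it. Libraries held 16294635 to 16497505 reads. No 2 libraries of the same group agreed within counting noise. The members and gene lists were chosen with earlier results of these data known. Named were the 10 members, the other tubulin genes, up to 4 called genes with the largest change from each further list, Ybx1, and the genes closest in pattern to Tuba1a and to the member with the smallest adjusted p (Tuba1c). Ttc5, Scaper, Vash1, Vash2 and the cell type markers were named outside this rule, after their values were seen.

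The labels number the replicates 1 to 3 in both groups, and the design text speaks of 3 sequencing batches. Deviations from the group means correlated at 0.324, 0.294 and 0.155 between libraries with the same number and at -0.262 to -0.00886 between others. Deviations in a group sum to 0, which draws the values between other numbers below 0, so those are no separate evidence of pairs. The numbers were taken as pairs from the labels and from these same data, as an alternative to the fit without the block. Block values are given for the members and other tubulin genes, with block counts for the other lists. The biological coefficient of variation was 7.69% without the block and 4.71% with it. Alternatives were DESeq2 1.42.0, limma-voom and limma on log2(TPM + 1) (limma 3.58.1), other scalings, no filter, a fold of at least 1.2, counts cut to whole numbers, each library left out and, chosen after seeing the data, both libraries numbered 2 left out. Sequences and shared stretches were read from GENCODE transcripts and coordinates from RefSeq, both on GRCm38.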

Additional observations from a re-analysis of the deposited data

How the results depend on the processing

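The number of tubulin genes called lower was 0 without the replicate block and 4 with it, and 1 with upper-quartile scaling (Tubb2b, adjusted p = 0.0495 by edgeR). Leaving out each library in turn gave 0 to 2 called lower, the 2 being Tubb2b (adjusted p = 0.020) and Tubb5 (adjusted p = 0.041) without KD replicate 3. No alternative called a member higher. At an unadjusted p under 0.05, 0 members passed without KD replicate 2 and without both libraries numbered 2, beside 2 in the fit as reported. Over all genes, 2539 were called higher and 2470 lower with the block, 779 to 1612 higher and 797 to 1583 lower with each library left out, 135 higher and 93 lower without both libraries numbered 2, which leaves fewer samples, and 1072 lower in TPM. The higher share of all calls was 50.2% as reported, 43.0% with upper-quartile scaling, 57.9% with library totals, 65.9% in TPM and 59.2% without both libraries numbered 2. Values near 0 changed sign, and the cause was not tested. Tuba1b stood at 0.013 in TPM and at -0.063 to 0.0066 with each library left out. Tubb2a stood at -0.0019 with upper-quartile scaling and at -0.078 to 0.096 with each library left out. Tubb3 stood at -0.14 to 0.025 with each library left out. Tubb4b stood at 0.02 in TPM, at 0.031 without both libraries numbered 2 and at -0.11 to 0.010 with each library left out. Tubg1 stood at -0.0044 with upper-quartile scaling and at -0.051 to 0.064 with each library left out. Of the alternatives for the log2 fold change of single members, 144 kept direction and side of the threshold, 14 changed sign and 7 passed the threshold. With each library left out, Tuba1a stood at -0.20 to -0.06, Tuba1c at -0.89 to -0.47 and Tubb6 at -0.58 to -0.06, the last without WT replicate 1. Tuba1c and Tubb6 had the fewest reads and the widest intervals of the members, and their WT libraries varied with coefficients of 28.2% and 34.1%.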

Other observations

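The genes whose pattern over the 6 libraries was most like that of Tuba1a were Gstm4, Tyk2, Rabl2 and Gm3264, with a root mean square difference of centred log2 CPM of 0.0236, 0.0265, 0.0294 and 0.0312 among 11431 genes compared. Their log2 fold changes were -0.15, -0.12, -0.09 and -0.14, none with an adjusted p under 0.05 by edgeR (0.40, 0.37, 0.49 and 0.21). For Tuba1c they were Nrsn2, Rnf152, Gabrg1 and Has3, at larger differences of 0.111, 0.112, 0.117 and 0.121, and of these Has3 fell by 0.73 on the log2 scale (adjusted p = 0.020 by edgeR).

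The ratio of Tubb4a to Tubb4b TPM was 1.95 to 2.06 in WT and 1.73 to 1.89 in KD, with no overlap between the groups and no test. How often ratios of other genes do not overlap was not examined, and single genes did not in 41.6% of cases in CPM. The ratio of Tubb3 to Tubb5 TPM was 0.766, 0.799 and 0.856 in WT and 0.80, 0.87 and 0.86 in KD, higher in KD in 3 of 3 pairs with overlapping groups.

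Among the modifying enzymes called but not described with the others, Atat1, the acetyltransferase of alpha tubulin, fell by 0.22 (SE 0.04, adjusted p = 0.0084 by edgeR), Agbl3, a carboxypeptidase that trims tubulin tails, fell by 0.39 (SE 0.12, adjusted p = 0.041) and Ttll12 rose by 0.20 (SE 0.05, adjusted p = 0.020). Cnot9, the CCR4-NOT subunit called lower, fell by 0.19 (SE 0.06, adjusted p = 0.045). These 4 were named after their values were seen. The call of Agbl3 was lost with any 1 library left out (adjusted p up to 0.12), that of Ttll12 without WT replicate 2 or any 1 KD library (up to 0.074) and that of Cnot9 with any library but WT replicate 3 left out (up to 0.14). Agbl3, Ttll12 and Cnot9 also missed the threshold in DESeq2 (adjusted p = 0.11, 0.062 and 0.082), Cnot9 also with library totals, with no filter and in TPM (0.082, 0.058 and 0.15), Agbl3 also with no filter (0.056), and all 4 missed it without both libraries numbered 2 (Atat1 at 0.13).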
